A study of Homo sapiens with 11 samples.

Results

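The 24 h response to the optimized drug combination ODC REMP (ODC) was measured in Caki-1-SR clone 1, 1 clone of a sunitinib-resistant subline of Caki-1, a human ccRCC line that came from a skin metastasis. The mix given to the cells of the 3 ODC libraries held a ruthenium(II) compound (Rapta-C, 2 µM), a blocker of the EGFR kinase (erlotinib, 1 µM), the biguanide metformin (1 µM) and the plant sesquiterpene lactone parthenolide (5 µM). The 3 CTRL libraries came from cells called untreated in one place and sham-treated with DMSO in another. Both groups carried the resistance to sunitinib, a receptor tyrosine kinase inhibitor kept in the culture at 1 µM. All 6 of the 24 h libraries of the 11 libraries of the series were used, and all genes with enough counts were members, 12689 of the 26485 gene symbols counted. The labels do not say that the libraries came from separate cultures, so p-values measure the spread between these libraries, which may be technical.

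Several pathways that the drugs can touch have well known target genes. Parthenolide carries an electrophilic group that reacts with thiols, and such compounds can modify KEAP1, the sensor that otherwise marks the transcription factor NRF2 for degradation. NRF2 binds antioxidant response elements and raises genes for NADPH supply, quinone and aldehyde reduction, iron storage, heme breakdown and export of conjugates. EGFR signals through ERK to ETS factors and early response genes, and the transcription factor ATF4 drives amino acid synthesis and aminoacyl-tRNA synthetase genes when amino acid supply or protein folding is disturbed.

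Among the genes that passed the adjusted threshold were enzymes and carriers of redox, iron and heme metabolism. Totals ran from 17785229 to 20882856 counts per library, so 3 counts were worth 0.144 to 0.169 CPM (counts scaled to a common library total), a limit that covers counting error only. With edgeR's quasi-likelihood test and Benjamini-Hochberg adjustment, 24 of 12689 genes (0.189%) had an adjusted p under 0.05, of which 21 were higher (0.165%) and 3 lower (0.0236%). With an unadjusted p under 0.05 and at least a 2-fold change there were 298 genes (2.35%), 225 higher (1.77%) and 73 lower (0.575%). When libraries of adjacent number (1 and 2, 3 and 4, 5 and 6) were taken as pairs, 686 genes had an adjusted p under 0.05 (5.41%), 425 higher (3.35%) and 261 lower (2.06%), and these included all 24. "Paired adjusted p" below is from that fit, whose pairs no label gives. Genes given below with a paired adjusted p and no other adjusted p did not pass the threshold without pairs. The common coefficient of biological variation was 0.166 without the pairs and 0.101 with them.

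Most of the transcriptome differed little. The log2 fold change was under 0.25 in either direction in 70.6% of the genes, its median was 0.0009, and its 1% and 99% quantiles were -0.92 and 1.31. The 3 ODC libraries did not overlap the 3 CTRL libraries in 2275 genes (17.9%), ODC above in 1195 (9.42%) and below in 1080 (8.51%). Called genes (p under 0.05 and at least 2-fold) made up 8.64% of the 741 genes with a mean under 1 CPM, 1.15% of the 6626 genes at 10 to 100 CPM 0.747% of the 2277 genes at 100 to 1000 CPM and 3.41% of the 88 genes at 1000 CPM and over, 3 genes that were all higher. By library, root-mean-square differences in log2 level were 0.34 to 0.449 among CTRL, 0.359 to 0.55 among ODC and 0.379 to 0.624 between the groups, so the within-group and between-group ranges overlapped. The first principal component held 43.9% of the variance and did not separate the groups: ODC library 4 lay at 1 end of it and ODC library 6 among the CTRL libraries. Of the genes higher and lower by p and fold, 93.3% and 87.7% were protein-coding, against 91.6% of all genes tested.

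**Figure D1:**
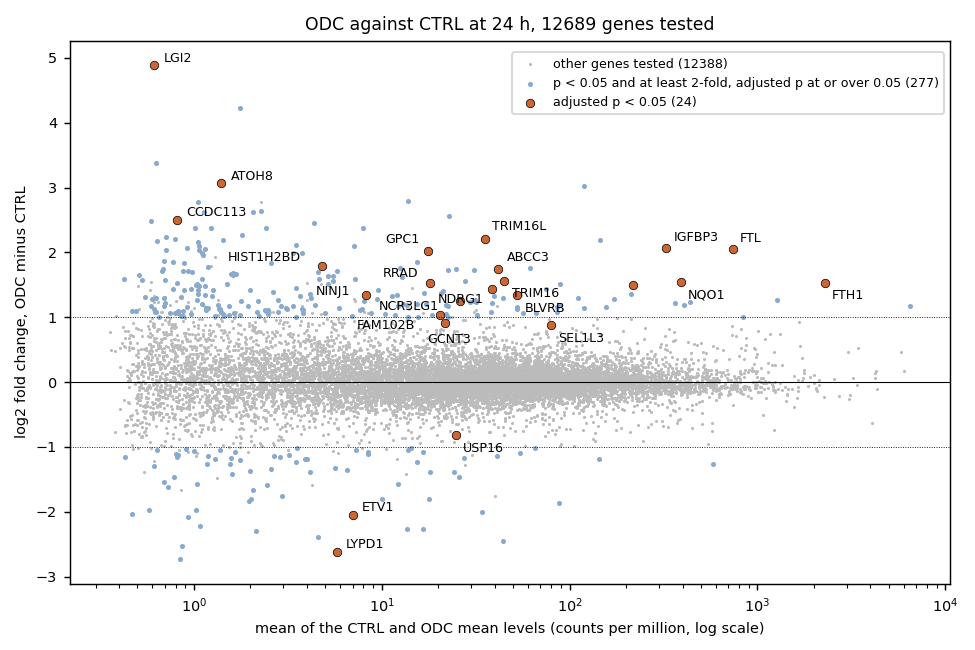
Log2 fold change of ODC against CTRL at 24 h (vertical axis) against the mean level in CPM on a log scale (horizontal axis) for the 12689 genes tested, each point 1 gene. Genes with an adjusted p under 0.05 are drawn in orange and named, 1 excepted; FTH1, FTL, NQO1 and IGFBP3 are among those that combine a high level with a rise, and the other genes past p and fold lie mainly at low levels. The height of LGI2, with 2 CTRL counts in all, depends on the prior count of the fit.

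The 2 ferritin genes of iron storage rose, as did BLVRB of heme breakdown. FTL encodes the light chain of ferritin, the protein shell that stores iron. Its level was 274, 265 and 327 CPM in CTRL libraries 1, 3 and 5 and 1034, 1304 and 1235 CPM in ODC libraries 2, 4 and 6. The log2 fold change of FTL was 2.04 ± 0.13 (standard error) and its adjusted p was 0.00216, with every ODC library above every CTRL library. FTH1, the ferritin heavy chain that oxidises the iron, rose from 1021, 1334 and 1179 CPM to 3141, 3873 and 3191 CPM (a log2 rise of 1.53 ± 0.14, SE, at adjusted p = 0.011). Both ferritin genes have processed pseudogenes in the genome, so part of their reads could have been lost or assigned elsewhere. Of 14 tested genes of cellular iron handling, only FTL, FTH1 and TFRC had an unadjusted p under 0.05 (21.4%, beside 12.2% of all genes). TFRC, the transferrin receptor that takes iron up, was at 1035, 535 and 993 CPM in CTRL and 1216, 1040 and 1804 CPM in ODC (adjusted p = 0.4, paired adjusted p = 0.0426). BLVRB, a biliverdin and flavin reductase, rose from 31.1, 33.4 and 25.1 to 73.7, 90.4 and 62.2 CPM (log2 fold change 1.34, adjusted p = 0.0368). SLC48A1, a heme transporter, was higher by 1.56 (paired adjusted p = 0.0225) and ABCB6, a porphyrin transporter, by 0.84 (paired adjusted p = 0.0182). Both were short of the threshold without pairs. Of 18 tested genes of heme synthesis and breakdown, 11 had a log2 fold change above 0 and 7 below, with a median of 0.05. At an unadjusted p under 0.05, 5 were higher (27.8%, beside 7.2% of all genes) and 0 lower, and 1 passed the adjusted threshold.

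A gene that reduces quinones and one that exports conjugates rose with them. NQO1, the NAD(P)H quinone reductase, stood at 195, 183 and 221 CPM in CTRL and 575, 604 and 565 CPM in ODC. It rose by 1.54 (standard error 0.10, adjusted p = 0.00216), and the spread of its ODC libraries was 20.5 CPM (SD, n = 3) on a mean of 581 CPM. ABCC3, an exporter of glutathione and glucuronide conjugates, rose from 16.5, 20.2 and 20.8 to 56.3, 88.2 and 48.8 CPM (log2 fold change 1.75, adjusted p = 0.0404). TRIM16, a ubiquitin ligase gene on chromosome 17 from 15627960 to 15684311, rose by 1.56 (adjusted p = 0.011) and its near copy TRIM16L by 2.20 (adjusted p = 0.00955). Reads of these copies may have been split between them. The non-oxidative enzyme TALDO1 was higher by 0.54 (adjusted p = 0.105, paired adjusted p = 0.0147), while ALDH1L2, a mitochondrial folate enzyme that also makes NADPH, had a log2 fold change of -0.99 (paired adjusted p = 0.00523). The NADPH supply list therefore did not move as a whole. Of its 20 tested genes 4 were higher and 3 lower with an unadjusted p under 0.05 (35% in all, beside 12.2% of all genes). Its median log2 fold change was -0.05.

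**Figure D2:**
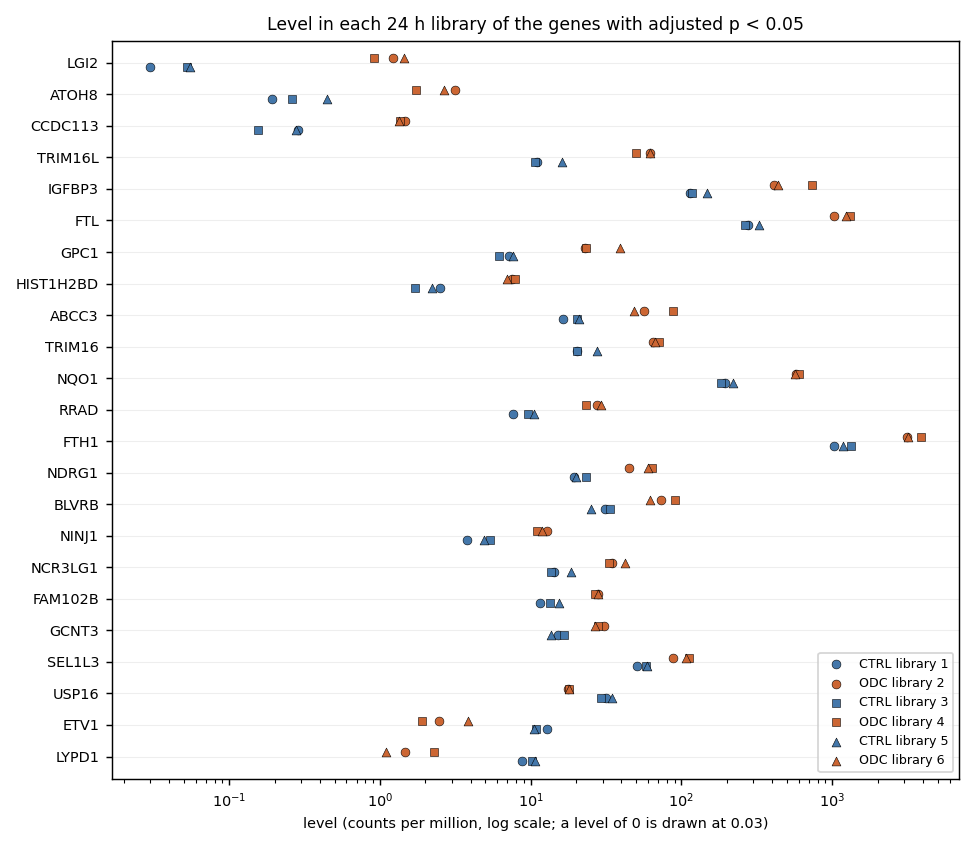
Level in CPM on a log scale of the genes with an adjusted p under 0.05 (1 not drawn) in each 24 h library, CTRL in blue and ODC in orange, with 1 marker shape per pair of adjacent library numbers. In every gene drawn the 3 ODC libraries lie on 1 side of the 3 CTRL libraries, below them in USP16, ETV1 and LYPD1 and above them in the others.

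Over the list of NRF2 target genes, all 38 tested members had a log2 fold change above 0, with a median of 0.61, beside 0.0009 over all genes. Of the 38, 25 were higher with an unadjusted p under 0.05 (65.8%, beside 7.2% of all genes), 8 passed the adjusted threshold and 24 passed it with pairs. This list, like the others, was written with earlier results of these data known. It includes genes already described, such as FTL and NQO1, so its counts are not independent of them. PIR, a nuclear iron-binding protein, went from 3.46, 4.12 and 3.48 to 8.85, 8.7 and 6.87 CPM (paired adjusted p = 0.0156). AKR1B10, an aldo-keto reductase, went from 1, 2 and 7 counts to 51, 29 and 125 counts (paired adjusted p = 0.00543). GSR, which regenerates reduced glutathione, went from 98.4, 88.8 and 85.4 to 148, 131 and 142 CPM (log2 fold change 0.63, paired adjusted p = 0.0104), and EPHX1, an epoxide hydrolase, was higher by 1.74 (paired adjusted p = 0.0109).

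The members did not move alike, and ODC library 6 differed for some of them. These genes were chosen after their values were seen. HMOX1, the heme oxygenase that frees iron from heme, was at 21, 16.7 and 40.6 CPM in CTRL and at 98.3, 49.7 and 489.8 CPM in ODC (adjusted p = 0.19, paired adjusted p = 0.0165). SLC7A11, the cystine importer that supplies glutathione synthesis, was at 75.4, 87.8 and 76.1 CPM in CTRL and at 41.1, 30.3 and 197 CPM in ODC (adjusted p = 0.943), so ODC libraries lay on both sides of CTRL. GCLM, a subunit of the first enzyme of glutathione synthesis, was at 62.5, 45.4 and 60.2 CPM in CTRL and at 62, 42.8 and 118 CPM in ODC (adjusted p = 0.685). The glutathione and thioredoxin list as a whole had 5 genes higher and 2 lower with an unadjusted p under 0.05 among 32 (21.9% in all, beside 12.2% of all genes). None had an adjusted p under 0.05. Metallothioneins, the metal-binding thiol proteins, had 0 of 6 genes with an unadjusted p under 0.05.

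The sequence of the antioxidant response element core, TGAC and GCA with any 3 bases between them, on either strand, was looked up before the RefSeq start sites of the genes (GRCh38.p14, which is hg38), from 2000 bases before to 50 bases after the start. It is shown because it is the binding motif of the factor the list is named after. The core was found in 12 of the 27 list members with a sequence (44.4%), in 5 of 14 genes that rose (35.7%), in 5 of 12 aminoacyl-tRNA synthetases (41.7%), most of which had a log2 fold change below 0, and in 19.6% of the 9976 tested genes with a sequence. Among the 172 genes higher by p and fold that had a sequence it was found in 20.9%. Members with the core had a median log2 fold change of 0.86 and those without it 0.58, and 8 of 12 and 8 of 15 had an unadjusted p under 0.05. The members with the core that did not pass an unadjusted p under 0.05 were BLVRA, CBR1, GCLC and GCLM. Their log2 fold changes were 0.01, 0.19, 0.18 and 0.41. Stretches of 5 of the 12 members are printed, which does not represent the 12, and capitals mark the core.
NQO1: gcagtcacagTGACTCAGCAgaatctgagc
FTL: gagctcagcaTGACTCAGCAgtcgctgcct
TALDO1: acccagggacTGACTCAGCAtaagcggaca
TRIM16: tcccagtgtcTGACTCTGCAgggccctagt
GCLM: tggaagacaaTGACTAAGCAgaaatcgtag
The NQO1 stretch is at chr16:69726996-69727025, minus strand, 446 bases before the start, in an exon of the divergent transcript NQO1-DT. The FTL stretch is at chr19:48963932-48963961, plus strand, 1358 bases before the start, and TALDO1 has its stretch at chr11:746501-746530, plus strand, 944 bases before the start, both outside annotated genes. The stretch of TRIM16, at chr17:15683348-15683377 on the minus strand, and that of GCLM, at chr1:93909446-93909475 on the plus strand, lie in annotated exons of these genes, 407 and 26 bases before the RefSeq starts. GCLM held the core closest to its start of these 5 and did not pass the test. A match says only that these letters are present, and no match only that they are not in this window.

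The other genes that rose with an adjusted p under 0.05 belong to varied functions. RRAD, a small GTPase that inhibits calcium channels and is a p53 target, went from 7.59, 9.65 and 10.5 to 27.6, 23.4 and 29.2 CPM (log2 fold change 1.53, adjusted p = 0.024). NDRG1, a stress and hypoxia response gene, went from 19.5, 23.2 and 20 to 45.2, 64.2 and 60.1 CPM (1.44, adjusted p = 0.0245). IGFBP3, a secreted carrier of insulin-like growth factors, went from 114, 117 and 147 to 414, 731 and 438 CPM (2.06, adjusted p = 0.025). All 3 genes had no overlap between the groups. NDRG1 and IGFBP3 are both on the list of 27 hypoxia-responsive genes, where 8 were higher (29.6%, beside 7.2% of all genes) and 0 lower with an unadjusted p under 0.05, and the median was 0.12. GPC1, a cell-surface heparan sulfate proteoglycan, rose from 7.16, 6.16 and 7.63 to 22.9, 23.4 and 39.1 CPM (2.03, adjusted p = 0.0292). NCR3LG1, a ligand of an activating receptor of natural killer cells, rose from 14.2, 13.6 and 18.4 to 34.5, 33 and 42.3 CPM (1.25, adjusted p = 0.0404). NINJ1, a membrane protein that acts in plasma membrane rupture, rose from 3.8, 5.38 and 4.92 to 12.7, 11 and 11.8 CPM (1.33, adjusted p = 0.0435).

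A few of these changes were narrow in spread but small or at low level. GCNT3, a glycosyltransferase that branches mucin-type sugars, rose by 0.91 (adjusted p = 0.047), SEL1L3 by 0.87 (adjusted p = 0.0481) and FAM102B by 1.04 (adjusted p = 0.0404). USP16, a histone H2A deubiquitinase on chromosome 21 from 29024629 to 29054488, fell from 31.4, 29.1 and 34.4 to 17.6, 17.9 and 18.1 CPM (log2 fold change -0.82, adjusted p = 0.047), and its ODC libraries differed by an SD of 0.24 CPM. LYPD1, which encodes a membrane-anchored Ly6 family protein, fell from 8.8, 10.3 and 10.6 to 1.48, 2.27 and 1.1 CPM (-2.62, adjusted p = 0.0207). CCDC113, a ciliary gene, rose from 0.288, 0.157 and 0.277 to 1.48, 1.35 and 1.35 CPM (adjusted p = 0.0461). LGI2, a secreted leucine-rich repeat protein (adjusted p = 0.0352), had 2 counts over the 3 CTRL libraries and 72 over the 3 ODC libraries. The ratio was 35, with an exact 95% counting interval of 9.35 to 295 that leaves out the spread between libraries. LGI2 and CCDC113 had fewer than 10 counts in every CTRL library and passed the filter on low counts through the ODC libraries. The same holds for ATOH8, AKR1B10 and CXCL16.

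Many genes of amino acid supply had a log2 fold change below 0. Of 20 tested aminoacyl-tRNA synthetases, the enzymes that load amino acids on tRNA, 17 had a log2 fold change below 0 and 11 were lower with an unadjusted p under 0.05 (55%, beside 5.04% of all genes). None passed the adjusted threshold without pairs, and 9 did with pairs. GARS went from 772, 757 and 619 to 395, 444 and 440.2 CPM (a log2 difference of -0.75 ± 0.11, SE, with adjusted p = 0.0654, paired adjusted p = 0.0147). CARS went from 201, 193 and 142 to 90, 100 and 94 CPM (-0.92 ± 0.14, adjusted p = 0.0654, paired adjusted p = 0.012). Both genes had every ODC library below every CTRL library, and CTRL library 5 was the lowest CTRL library for each.

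ATF4 itself was at 347, 352 and 274 CPM in CTRL and 199.9, 186 and 215 CPM in ODC (log2 fold change -0.70, adjusted p = 0.0876, paired adjusted p = 0.0248). PSAT1, an enzyme of serine synthesis, was at 358, 352 and 249 CPM in CTRL and 179, 182 and 148 CPM in ODC (-0.91, paired adjusted p = 0.00502). Of 29 tested genes of the integrated stress response, the ATF4 program, 11 were lower and 2 higher with an unadjusted p under 0.05 (44.8% in all, beside 12.2% of all genes), and 9 and 1 with an adjusted p in the paired fit. The higher genes were ATF3 and GDF15, stress-induced genes that p53 also activates, and GDF15 was chosen after its values were seen. ATF3 was at 10.4, 9.08 and 12.1 CPM in CTRL and 22.3, 18.1 and 63.8 CPM in ODC, while GDF15 was at 57.8, 39.2 and 63 CPM in CTRL and 94.8, 44.6 and 218 CPM in ODC. Both were highest in ODC library 6, and the median of the list relative to CTRL was -0.51, -0.40 and -0.06 in ODC libraries 2, 4 and 6. For the synthetases these medians were -0.25, -0.27 and -0.30.

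The C/EBP-ATF response element core, TGATGNAA on either strand, is the motif through which ATF4 acts. It was searched within 300 bases of the start sites (250 before to 50 after), and the motif was chosen with the list results known. Of the 12 synthetase genes with a RefSeq sequence, 5 held it (41.7%), beside 1.66% of all tested genes with a sequence. In the longer window used above for the antioxidant core, the share of the synthetases was the same (41.7%). There it stood beside 23.4% of all tested genes with a sequence, so the contrast depends on the window. All 5 (AARS, CARS, IARS, NARS and TARS) were lower with an unadjusted p under 0.05, with log2 fold changes from -0.92 to -0.29. Of the 7 without it (EPRS, FARSA, FARSB, HARS, KARS, RARS and WARS), 1 was lower with an unadjusted p under 0.05, WARS at -0.54, and their median was -0.03. These genes were named after their values were seen, and DARS, GARS, LARS, MARS, QARS, SARS, VARS and YARS were not searched. The 5 stretches are shown because they share the same 8 letters, in capitals.
AARS: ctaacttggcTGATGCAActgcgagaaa
CARS: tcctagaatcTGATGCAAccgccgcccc
IARS: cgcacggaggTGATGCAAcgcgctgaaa
NARS: ctacgctctcTGATGCAAcgccggaatc
TARS: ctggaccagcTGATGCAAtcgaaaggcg
They are at chr16:70289676-70289703 (plus strand), chr11:3057408-3057435 (plus), chr9:92293693-92293720 (plus), chr18:57621805-57621832 (minus) and chr5:33440957-33440984 (minus), each in an annotated exon of its own gene. The AARS match ends 180 bases before the RefSeq start and the IARS match 6 bases before it, and the other 3 lie at the start or just past it. In the integrated stress response list, 5 of 23 genes held the motif in this window (21.7%), 3 of them lower and ATF3 and SLC3A2 higher in log2 fold change, so the motif did not go with 1 direction there.

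**Figure D3:**
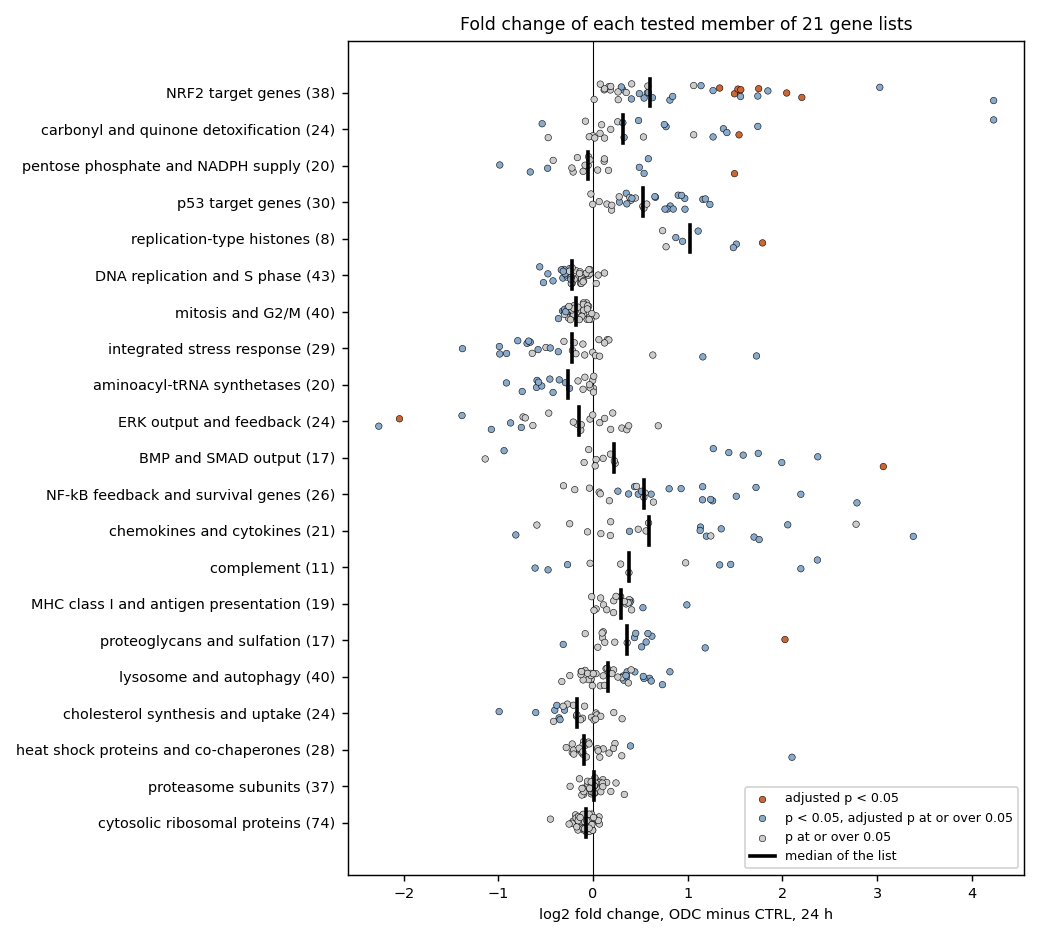
Log2 fold change of ODC against CTRL at 24 h (horizontal axis) of each tested member of 21 gene lists, 1 point per gene, with the number of tested members in brackets and the median as a black bar. All 38 NRF2 target genes tested and the 8 histone genes that passed the filter on low counts lie above 0. Of 40 mitosis genes 39 lie below 0 within a narrow range. Proteasome genes lie on both sides of 0, and 68 of 74 ribosomal protein genes lie below 0, within a narrow range.

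Most p53 target genes had a log2 fold change above 0 and most cell cycle genes one below 0. Of 30 tested p53 targets 28 had a log2 fold change above 0 (median 0.53) and 17 were higher with an unadjusted p under 0.05 (56.7%, beside 7.2% of all genes). None of these 30 passed the adjusted threshold, and 16 did with pairs. RRAD, described above as a p53 target that passed, is not on this list. TP53I3, a quinone oxidoreductase, went from 20.7, 26.4 and 23.2 to 44.2, 38.3 and 48.5 CPM (log2 fold change 0.90, adjusted p = 0.0654, paired adjusted p = 0.0167). BBC3, the pro-apoptotic BCL2 family member PUMA, went from 16.4, 20.1 and 17.1 to 30.2, 25.8 and 36.3 CPM (paired adjusted p = 0.0338). CDKN1A, the cyclin-dependent kinase inhibitor p21, chosen after its values were seen, was at 86.9, 89.4 and 107 CPM in CTRL and 206, 130.5 and 218 CPM in ODC (paired adjusted p = 0.0156). ODC library 4 was the lowest ODC library for each of these genes, and the median of the list relative to CTRL was 0.53, 0.14 and 0.82 in ODC libraries 2, 4 and 6.

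DNA replication genes had a log2 fold change below 0 in 40 of 43 and mitosis genes in 39 of 40, with medians of -0.22 and -0.18. At an unadjusted p under 0.05, 11 (25.6%) and 5 (12.5%) were lower, beside 5.04% of all genes, and 0 passed the adjusted threshold in either list, with 6 and 0 in the paired fit. RFC4, a subunit of the clamp loader of DNA replication, went from 104, 99 and 89.5 to 75, 70.1 and 53 CPM (log2 fold change -0.56, paired adjusted p = 0.0168). CDK1, the kinase that drives mitosis, was at 181, 181 and 177 CPM in CTRL and 165, 127 and 139 CPM in ODC (-0.32, adjusted p = 0.295). In bulk RNA, fewer cells of a kind and less RNA per cell cannot be told apart. Over the mitosis list the medians relative to CTRL were -0.01, -0.42 and -0.13 in ODC libraries 2, 4 and 6 and from -0.02 to 0.04 in the CTRL libraries, so ODC library 2 overlapped CTRL, and the ODC library lowest for p53 targets was also the lowest for mitosis genes.

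The few histone genes tested went the other way from DNA replication genes. Of 67 replication-type histone genes among the gene symbols, 8 had enough counts to be tested. Their transcripts mostly lack a poly(A) tail and are therefore rare in mRNA libraries. All 8 had a log2 fold change above 0, with a median of 1.03. Of these, 6 had an unadjusted p under 0.05 (75%, beside 12.2% of all genes). HIST1H2BD rose from 2.5, 1.72 and 2.21 to 7.47, 7.84 and 7.02 CPM (a log2 rise of 1.79 ± 0.20, SE, at adjusted p = 0.025). HIST1H2AC went from 3.03, 1.67 and 3.38 to 9.25, 7.13 and 6.68 CPM (1.51, paired adjusted p = 0.0197), and HIST1H1C from 11.1, 7.46 and 9.13 to 20.9, 14.4 and 17.9 CPM (0.94, paired adjusted p = 0.0104). These genes can have near-identical copies, so their reads are uncertain. The list's direction rests on the filter on low counts, since its median was -0.04 once all genes with any count, and so more histone genes, were tested.

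Genes downstream of EGFR and ERK were divided. ETV1, an ETS transcription factor induced by ERK, fell from 12.7, 10.8 and 10.5 to 2.46, 1.89 and 3.85 CPM (a log2 drop to -2.05 ± 0.26, SE, at adjusted p = 0.0404). EGR1, an immediate early gene, was at 41.8, 21.2 and 18.9 CPM in CTRL and 6.93, 7.73 and 2.45 CPM in ODC (-2.26, adjusted p = 0.107, paired adjusted p = 0.0109). PHLDA1, an early response gene, had a log2 fold change of -0.87 (paired adjusted p = 0.0423). Of the 24 ERK output and feedback genes, 6 were lower (25%, beside 5.04% of all genes) and 0 higher with an unadjusted p under 0.05, while the other 18 did not pass it. Over this list the medians relative to CTRL were -0.24, -0.36 and 0.20 in ODC libraries 2, 4 and 6 and ranged from -0.32 to 0.25 in the CTRL libraries, so the list as a whole overlapped between the groups. EGFR itself was at 356, 496 and 442 CPM in CTRL and 532, 770.1 and 492 CPM in ODC, which overlap (adjusted p = 0.376). NRG1, a ligand of ERBB receptors, was higher by 0.77 (adjusted p = 0.213, paired adjusted p = 0.0256).

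The median of the BMP and SMAD output genes was higher in every ODC library than in every CTRL library, though 4 of the 17 genes had a log2 fold change below 0. BMP ligands act through SMAD proteins on ID genes and on the inhibitor SMAD6. ATOH8, a transcription factor induced by BMP, rose from 0.192, 0.261 and 0.443 to 3.15, 1.73 and 2.64 CPM (a log2 rise of 3.07 ± 0.40, SE, at adjusted p = 0.0404). SMAD6 went from 1.06, 1.3 and 1.72 to 5.66, 4 and 6.54 CPM (1.99, adjusted p = 0.0517, paired adjusted p = 0.0104), and ID1 from 46.2, 26.9 and 47.9 to 115, 93.7 and 118 CPM (1.43, adjusted p = 0.0654, paired adjusted p = 0.00409). Of 17 tested genes on the list, 7 were higher by p and fold (beside 1.77% of all genes) and 1 was lower by p alone. The lower gene, named after its values were seen, was the ligand BMP4, at 2.55, 4.54 and 3.26 CPM in CTRL and 1.67, 2.43 and 1.3 CPM in ODC (paired adjusted p = 0.0605). The medians relative to CTRL were 0.30, 0.35 and 0.32 in the ODC libraries, and -0.05 to 0.08 in the CTRL libraries.

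**Figure D4:**
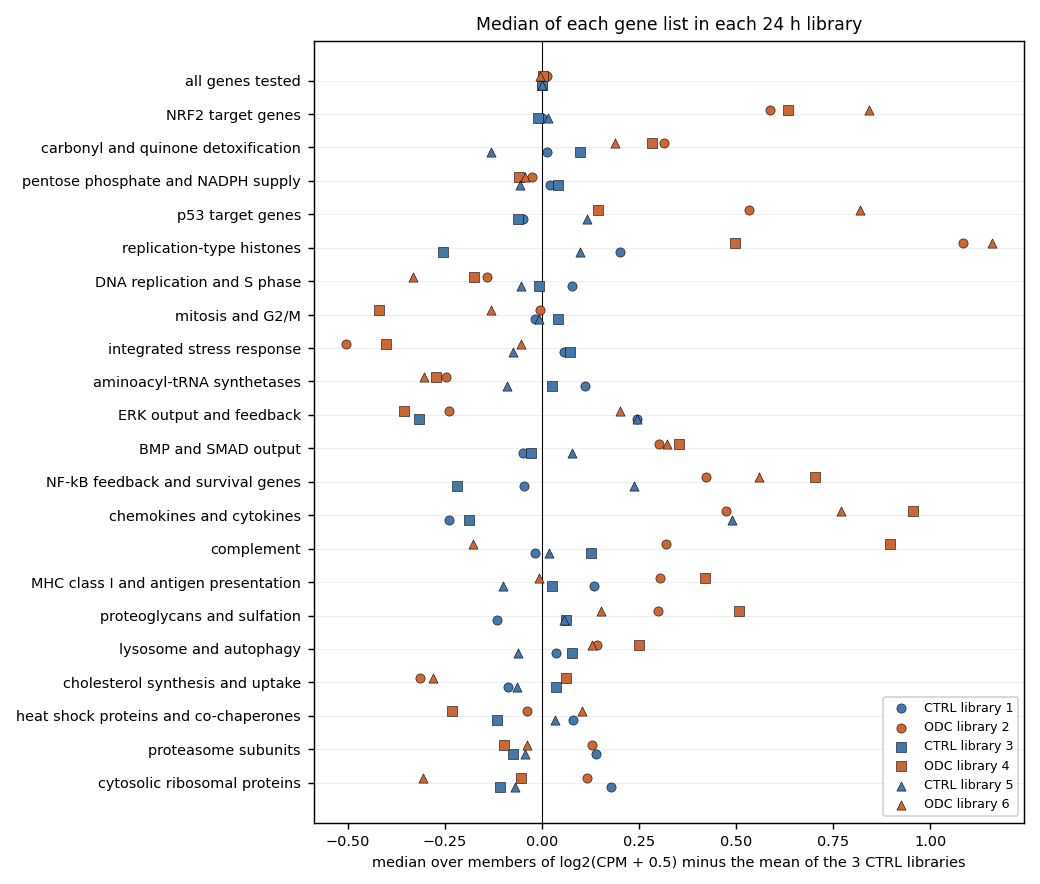
Median over the members of each gene list, in each 24 h library, of log2(CPM + 0.5) minus the mean of the 3 CTRL libraries (horizontal axis), CTRL in blue and ODC in orange. The ODC libraries lie together and away from CTRL for NRF2 targets, aminoacyl-tRNA synthetases and BMP output, are spread for p53 targets (0.14 to 0.82) and mitosis genes, and overlap CTRL for ERK output, heat shock, proteasome and ribosomal protein genes.

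Most NF-kB target genes had a log2 fold change above 0, and none passed the adjusted threshold without pairs. Parthenolide is known as an inhibitor of the NF-kB pathway, whose target genes include its own inhibitors. Of 26 NF-kB feedback and survival genes 16 were higher (61.5%, beside 7.2% of all genes) and 0 lower with an unadjusted p under 0.05, and 8 passed the adjusted threshold with pairs. NFKBIA, the inhibitor of NF-kB and one of its first targets, went from 28.8, 28.1 and 39.3 to 56.8, 72.5 and 54.1 CPM (log2 fold change 0.93, adjusted p = 0.0983, paired adjusted p = 0.0279). IL6, an inflammatory cytokine, went from 18.6, 23.2 and 43 to 78, 106 and 101 CPM (1.75, paired adjusted p = 0.00821), and CSF1, the growth factor of macrophages, from 124, 74.9 and 161 to 285, 275 and 360.5 CPM (1.35, paired adjusted p = 0.0083). CXCL16, a chemokine, had 6 counts over the CTRL libraries and 67 over the ODC libraries. The ratio was 10.9, with an exact 95% counting interval of 4.74 to 30.7 that leaves out the spread between libraries. CTRL library 5 was the highest CTRL library for IL6 and CSF1, and over the 21 chemokine and cytokine genes its median (0.49) was above that of ODC library 2 (0.47), so the list overlapped between the groups.

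Complement genes differed in both directions. C1S, a protease of the classical pathway, went from 1.68, 2.77 and 3.26 to 9.64, 20.1 and 10 CPM (log2 fold change 2.37, paired adjusted p = 0.0102), and C3, the central component, from 40.3, 61.2 and 53.9 to 189, 405 and 117 CPM (2.19, paired adjusted p = 0.0155). CLU, a secreted chaperone and complement inhibitor, went from 1.88, 1.83 and 1.94 to 6.15, 5.19 and 4.13 CPM (1.45, paired adjusted p = 0.0165). Of the 11 tested complement genes 4 were higher and 3 lower with an unadjusted p under 0.05 (63.6%, beside 12.2% of all genes). Among the lower genes, and named after their values were seen, were the membrane inhibitors CD59 and CD46, at log2 fold changes of -0.48 and -0.27. C3 and C1S were highest in ODC library 4. TAP1, the peptide transporter of antigen presentation, went from 22.3, 26 and 27.8 to 51.5, 58 and 41.6 CPM (0.99, adjusted p = 0.0654, paired adjusted p = 0.0155). Of 19 antigen presentation genes 18 had a log2 fold change above 0, 4 of them with an unadjusted p under 0.05 (21.1%, beside 7.2% of all genes). Their medians relative to CTRL were 0.305, 0.421 and -0.008 in ODC libraries 2, 4 and 6 and from -0.1 to 0.133 in the CTRL libraries, so the list overlapped between the groups. Of 26 interferon-stimulated genes, 2 were higher and 3 lower with an unadjusted p under 0.05 (19.2% in all, beside 12.2% of all genes), and their median was 0.01.

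The kidney factor LHX1 and genes of coagulation were among the lower ones. Renal lineage transcription factors as a list did not go 1 way. Of 7 tested, 4 had a log2 fold change above 0 and 3 below, with a median of 0.04. Only LHX1 had an unadjusted p under 0.05 (14.3%, beside 12.2% of all genes). LHX1, a transcription factor of kidney development, was at 27.8, 51.8 and 34.5 CPM in CTRL and 10.3, 15.8 and 15.4 CPM in ODC (log2 fold change -1.46, paired adjusted p = 0.00543). FGB and FGA, the fibrinogen beta and alpha chains, had log2 fold changes of -1.57 and -2.3 (paired adjusted p = 0.011 and 0.0149), and PLAT, the tissue plasminogen activator, one of -2.45 (paired adjusted p = 0.0365), with no overlap between the groups for any of them. MACC1, a regulator of the MET receptor gene, went from 21.5, 40.5 and 21.7 to 7.62, 10.4 and 5.96 CPM (-1.81, paired adjusted p = 0.00367). The noncoding RNAs OLMALINC, KCCAT198 and LINC01483 had log2 fold changes of -2.39, -2.08 and -2.73, from CTRL means of 7.67, 1.52 and 1.47 CPM. Among epithelial genes, the keratin KRT18 was at -0.71 and the tight junction gene CLDN2 at -1.17 in log2 fold change (paired adjusted p = 0.0423 and 0.00693).

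More lipid synthesis genes had a log2 fold change below 0 than above it, and more lysosomal genes one above 0. The list medians overlapped between the groups for lipid synthesis: relative to CTRL they were -0.31, 0.06 and -0.28 for cholesterol genes in ODC libraries 2, 4 and 6, with -0.09 to 0.04 in CTRL, and -0.25, -0.03 and -0.15 for fatty acid genes, with -0.08 to 0.17 in CTRL. SCD, the desaturase that makes monounsaturated fatty acids, was at 754, 1108 and 609.9 CPM in CTRL and 249.7, 502 and 279 CPM in ODC (log2 fold change -1.26, adjusted p = 0.157, paired adjusted p = 0.00518). Of 24 cholesterol genes 7 were lower (29.2%, beside 5.04% of all genes) and 0 higher with an unadjusted p under 0.05, led by STARD4, a sterol carrier, at -0.99 (paired adjusted p = 0.0442). Of 40 lysosome and autophagy genes 12 were higher (30%, beside 7.2% of all genes) and 0 lower with an unadjusted p under 0.05. CTSD, a lysosomal protease, went from 482, 679 and 488 to 804, 1002 and 935 CPM (0.73, paired adjusted p = 0.0109). SQSTM1, the autophagy receptor p62, went from 536, 629.5 and 609.5 to 878, 885 and 1351 CPM (0.81, paired adjusted p = 0.0226). Proteoglycan and sulfation genes, GPC1 among them, were higher in 8 and lower in 1 of 17 with an unadjusted p under 0.05 (52.9% in all, beside 12.2% of all genes).

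Several stress and housekeeping programs showed no such difference. Of 28 heat shock proteins and co-chaperones 2 were higher with an unadjusted p under 0.05 (7.14%, beside 7.2% of all genes). They were CRYAB and CHORDC1 (paired adjusted p = 0.0378 and 0.124). Of 37 proteasome subunits 0 had an unadjusted p under 0.05, with a median of 0.01. Of 74 cytosolic ribosomal proteins 0 had one, 68 had a log2 fold change below 0, and their median of -0.08 ran from -0.19 to 0.03 over the alternative settings and so changed sign. Mitochondrial complex I, an inhibition target of metformin, had 1 of 38 genes with an unadjusted p under 0.05 (2.63%, beside 12.2% of all genes), NDUFB6 at -0.39. Differences smaller than the spread between libraries were not detectable in these lists.

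Markers of endothelium and of T cells and monocytes were low, some fibroblast markers were not, and some markers of the line were absent. Of 9 markers of endothelium, 3 were at 0 in all 6 libraries (KDR, FLT1 and CLDN5) and the sum of the list was 1.36 to 2.66 CPM in CTRL and 1.38 to 1.73 CPM in ODC. Of 9 T cell and monocyte markers, CD3D and CD8A were at 0 and the sum, mostly CD68, was 5.91 to 6.64 CPM in CTRL and 8.51 to 8.7 CPM in ODC. Of 9 fibroblast markers 3 were above 3 counts, among them COL1A1 and PDGFRB, and the sum was 66.8 to 142 CPM in CTRL and 116 to 169 CPM in ODC. The kidney factor PAX8 was at 437 to 654 CPM in CTRL and 546 to 891 CPM in ODC, while PAX2 and CA12, also linked to ccRCC, had at most 1 count per library. The sum over the 10 kidney and ccRCC markers was 4800 to 5690 CPM in CTRL and 3870 to 4850 CPM in ODC. Of the 8 tested, 4 were lower with an unadjusted p under 0.05 (50%, beside 5.04% of all genes), LHX1, KRT18, KRT8 and VIM.

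After 2 h of treatment, compared in 1 model of all 11 libraries, 0 of 13333 genes (0%) had an adjusted p under 0.05 (216 had an unadjusted p under 0.05, 1.62%). FTL and NQO1 then had log2 fold changes of 0.11 (standard error 0.16) and 0.10 (standard error 0.13). Their response was larger at 24 h than at 2 h by 1.92 and 1.42, each with an adjusted p of 0.0174 for the difference. They were the 2 genes of 13333 (0.015%) for which the difference passed, neither passed when any of 6 of the 11 libraries was left out, and time cannot be told apart in it from the month given in the library titles, which differs between the times. IGFBP3 was at 0.02 after 2 h, and its difference did not pass (adjusted p = 0.324). HIST1H2BD was at -0.21 after 2 h (adjusted p = 0.083 for the difference).

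**Figure D5:**
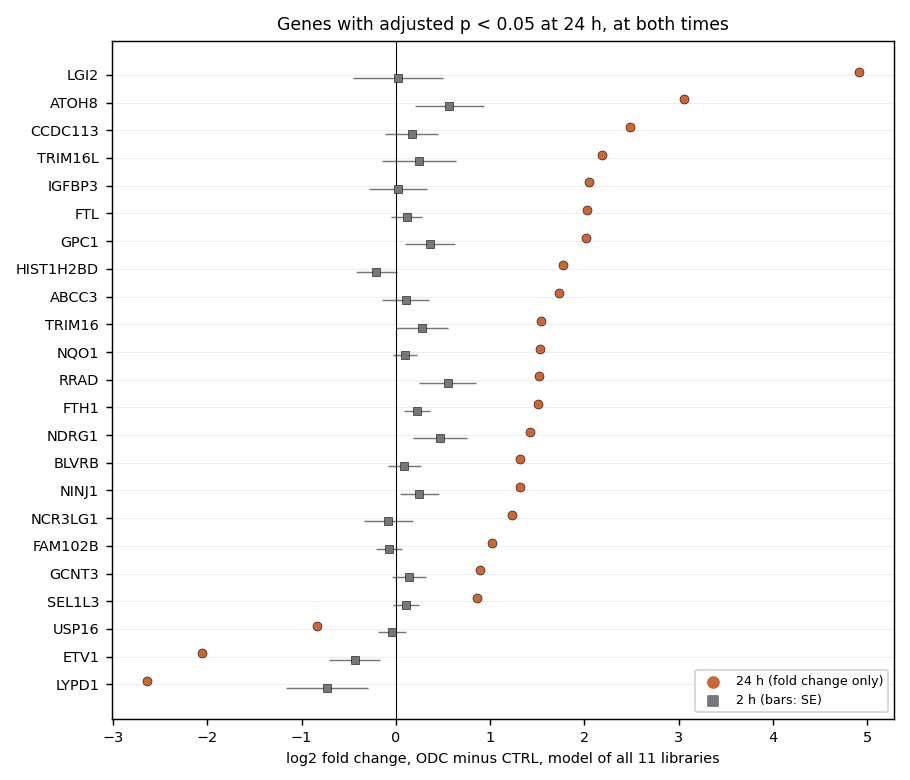
Log2 fold change of ODC against CTRL (horizontal axis) at 24 h (circles) and at 2 h (squares, bars give the standard error) for the genes with an adjusted p under 0.05 at 24 h (1 not drawn), from the model of all 11 libraries. The values at 2 h lie between -0.73 (LYPD1) and 0.57 (ATOH8); the difference between the times passed the test for FTL and NQO1.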

How the data were processed

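Stranded mRNA libraries (TruSeq) were read as single 100-base reads. The authors aligned the reads to hg38 with STAR and counted them per gene with HTSeq 0.9.1. The processing notes give STAR 2.7.0f and edgeR 3.26.8. The gene annotation and strand setting are not given in the sources used here. The deposited values are raw counts of 26485 gene symbols.

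From these counts, ODC and CTRL at 24 h were compared with edgeR 4.0.16 (R 4.3.3, legacy quasi-likelihood F test, two-sided) after filterByExpr (minimum count 10, minimum total 15) and TMM scaling. CPM values are TMM-scaled. The difference between the times was a contrast in a fit of all 11 libraries. Alternatives were 3 scalings, 2 filters, DESeq2 1.42.0, 2 other edgeR tests, the joint fit, adjacent libraries as a replicate block, and each library left out.

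The labels give no replicate numbers shared by the groups. Adjacent libraries deviated in the same direction from their group means (r across genes of 0.20, 0.58 and 0.45, beside -0.55 to 0.23 in other combinations). CTRL library 1, however, went with ODC library 6 (0.23) no less than with its neighbour, ODC library 2 (0.20). These correlations come from the same counts as the paired fit, so they cannot show that the libraries are pairs. The block served as a second fit only. No source says what adjacent libraries share. Replicate libraries differed by more than sampling noise.

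Named were all genes with an adjusted p under 0.05, the next 15 higher and 15 lower by p among those changed at least 2-fold, up to 3 members of each list with the smallest p, and cell markers, except items that are not reported here. The comparison, the lists and the motifs were chosen with earlier results of these data known. Lists were written from general knowledge and are described by counts and medians. Of the tested symbols, 11704 matched GENCODE release 44 directly and 694 through a RefSeq synonym. The test without pairs was checked on counts simulated without any deviation shared by adjacent libraries. At an adjusted p under 0.05 it called 98 of 100 genes changed 4-fold and 73 of 100 changed 2-fold. It also called 20 of 12391 unchanged genes (0.161%), so 20 of its calls were false beside 98 and 73 true ones. That is a larger share of the calls than the 0.05 at which the threshold is set. The share of false calls among the 24 genes is not known.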

Additional observations from a re-analysis of the deposited data

Results flagged for a closer look

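Of the 13333 genes in the model of all 11 libraries, FTL and NQO1 were the ones whose difference in response between 24 h and 2 h passed an adjusted p under 0.05. Other genes were not shown to respond alike at both times. IGFBP3 had a difference of 2.02 (standard error 0.41) that did not pass (adjusted p = 0.324). Which genes passed depended on the test and on single libraries, as given in the next section. For FTL the log2 fold change was larger at 24 h by 1.92 (adjusted p = 0.0174, edgeR's quasi-likelihood test of the difference), and for NQO1 by 1.42 (adjusted p = 0.0174). In each gene all 3 ODC libraries were above all 3 CTRL libraries at 24 h. The titles of the 2 h libraries give another month than those of 24 h, without saying what was done then, and cannot be told apart from time. The part of having 2 CTRL libraries at 2 h was not tested.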

How the results depend on the processing

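Genes named by the rule in the processing summary kept their direction under each alternative run for them; genes chosen after their values were seen, such as SLC7A11 and GCLM, were not recomputed. FTL and NQO1 kept an adjusted p under 0.05 in 16 of 16 alternatives (at most 0.0408), and FTH1 and TRIM16L in 14 of 16. The 298 genes called by unadjusted p and fold became 525 without a filter on low counts, and 242 to 474 with 1 library left out (474 without ODC library 6). The 21 genes called by adjusted p and fold became 59 without the filter, 145 with DESeq2, 186 with the likelihood ratio test, 95 in the joint fit and 176 with adjacent libraries as a replicate block. The 24 called by adjusted p at any fold became 92, 378, 401, 186 and 686 in the same order. With 1 library left out these counts ran from 2 to 53 and from 2 to 70: leaving out CTRL library 1 gave 2 for both, ODC library 2 gave 3, CTRL library 3 gave 4, CTRL library 5 gave 12, and ODC library 6 gave 53 and 70. The 2 genes whose difference between the times passed became 7 without the filter, 38 with DESeq2 and 37 with the likelihood ratio test. With 1 library left out this count ran from 0 to 4. It was 0 when CTRL library 1 or 3 or ODC library 4 of 24 h was left out. It was also 0 without the second CTRL or the first or the third ODC library of 2 h. The causes were not tested. Of the recomputed list medians, 545 stayed within the spread between libraries and 27 did not.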
